A study of Mus musculus with 4 samples.

Results

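The insulin-like growth factor (IGF) axis and the growth hormone receptor were read as 10 genes in terminal end buds of Ovol2 knockout and control mice. The genes were the ligands Igf1 and Igf2, the receptors Igf1r and Ghr, and the binding proteins Igfbp2, Igfbp3, Igfbp4, Igfbp5, Igfbp6 and Igfbp7. They were chosen by name, and each had exactly 1 probe set that was annotated to no other gene, so that all 10 of 10 were measured among 19938 genes in all. All 10 also passed the filter on low signal and were among the 11963 genes tested. Of these 10, 8 rose in the knockout, where 6.29% of all tested genes were called higher, and 0 fell. Among the 10, Igfbp5 (1.79-fold), Igfbp7 (1.54-fold) and Igf1 (1.51-fold) showed the largest differences.

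Terminal end buds are the club-shaped growing tips of the mammary ducts at puberty, and they were dissected from the glands of female C57/BL6 mice. The control group was labelled Ovol2flox/+ and the protocol adds that Ovol2flox/+;K14-Cre mice also served as controls, while the sample characteristics of both control arrays name no Cre. The knockout group was Ovol2flox/-;K14-Cre, which carries a floxed and a null allele with Cre recombinase under the keratin 14 promoter, active in basal epithelium and skin. All mice thus carried at least 1 floxed Ovol2 allele, and the null allele was present in every cell of the knockout animals. Ovol2 encodes a zinc finger repressor of the epithelial-mesenchymal transition. Each of the 4 arrays held pooled RNA, with 2 mice in each control pool and 3 in each knockout pool, and each group had 2 arrays labelled as biological replicates. Littermates shared cages. The labels give an age of 4.5 weeks and the series text 24 to 25 days. The comparison was of the 2 knockout pools with the 2 control pools.

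Growth hormone from the pituitary acts through the growth hormone receptor, the kinase Jak2 and the factors Stat5a and Stat5b, and induces Igf1 in liver and in the stroma of the mammary gland. IGF1 and IGF2 then signal through the IGF1 receptor, while IGF binding proteins hold the ligands in the matrix and in plasma and either limit or prolong their action. In the pubertal gland this route is known to drive end bud formation and duct growth together with oestrogen.

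Values are single-colour array signals on a linear scale as deposited, and differences are knockout minus control on the log2(signal + 16) scale after quantile normalization, ± the SE of the fit with n = 2 arrays per group. The adjusted p-values are from limma with Benjamini-Hochberg adjustment over all 11963 genes, and a gene was called at an adjusted p of 0.05. The array medians were 252 to 272, and across tested genes the log2 values correlated with r = 0.991 between the control arrays and r = 0.987 between the knockout arrays. Between a control and a knockout array r ran from 0.962 to 0.985. The targeted gene Ovol2 read 250.2 and 291 on the control arrays, against 211 and 204 on the knockout arrays, a difference of -0.39 ± 0.16 that did not pass (limma, adjusted p = 0.17) and was in the direction of the labels, at -0.26 without control replicate 2 and -0.52 without control replicate 1. On the log2 scale both knockout values of Ovol2 (7.845 and 7.7335) lay under the filter level of 7.97, and dim signals could not be told from background. Ovol2 passed that filter through its control values (8.05 and 8.31). Where its probes lie relative to the deleted part is not given in the sources used here. All 18 luminal and all 16 basal epithelial markers on the array passed the filter. So did all 18 fibroblast and all 15 endothelial markers and 11963 of all 19938 genes, so passing does not check the tissue label. Krt14, whose promoter drove Cre, differed by 0.43 ± 0.15 and did not pass (adjusted p = 0.0993), and removing knockout replicate 2 gave 0.14 while removing knockout replicate 1 gave 0.72. It passed in 4 of 13 other fits, among them those on the values as deposited, with median centring and without knockout replicate 1, with adjusted p from 1.03e-19 to 0.506.

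Ovol2 and Zeb1 are DNA-binding repressors with short recognition motifs, and the promoter windows of the members were searched for such motifs. Whether a motif has any part in a difference was not tested. The windows are the 250 bases before each annotated start site in RefSeq on the GRCm38.p6 build, and all 10 members matched, with 15 windows. Igfbp4 (chr11:99040994-99041243, plus strand) and Igfbp3 (chr11:7213924-7214173, minus strand) hold a motif, in capitals, and Igfbp5 (chr1:72874866-72875115, minus strand), the member with the largest difference, holds none. Each is written 5′ to 3′ in the direction of its gene, and its last base lies next to the start site.
Igfbp4: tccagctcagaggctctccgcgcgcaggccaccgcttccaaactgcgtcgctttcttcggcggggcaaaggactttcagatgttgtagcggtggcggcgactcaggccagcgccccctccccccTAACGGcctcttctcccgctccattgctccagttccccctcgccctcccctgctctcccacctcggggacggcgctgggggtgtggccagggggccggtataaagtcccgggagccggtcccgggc
Igfbp3: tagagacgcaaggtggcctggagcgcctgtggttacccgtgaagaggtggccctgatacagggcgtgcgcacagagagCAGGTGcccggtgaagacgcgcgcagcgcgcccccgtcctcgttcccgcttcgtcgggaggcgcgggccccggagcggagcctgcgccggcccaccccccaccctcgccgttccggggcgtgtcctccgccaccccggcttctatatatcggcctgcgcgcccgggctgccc
Igfbp5: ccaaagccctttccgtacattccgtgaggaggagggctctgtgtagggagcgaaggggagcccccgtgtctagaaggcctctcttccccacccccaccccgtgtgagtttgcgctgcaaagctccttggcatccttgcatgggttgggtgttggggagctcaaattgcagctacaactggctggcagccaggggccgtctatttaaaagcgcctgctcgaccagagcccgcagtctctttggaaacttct
The capitals mark CCGTTA, the OVOL core, read on the opposite strand in Igfbp4, and CAGGTG, the E-box bound by ZEB factors, in Igfbp3. Both motifs and TTCNNNGAA, the site type bound by STAT5, were searched on both strands. CCGTTA was found in 2 of the 15 windows, at Igfbp4 and at the second start of Igfbp2, and in 2.18% of all 32851 windows. CAGGTG was found in 1 of the 15, at Igfbp3, and in 17.2% of all windows. TTCNNNGAA was found in 0 of the 15 and in 7.02% of all windows. A match describes these letters only.

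Of the ligand genes Igf1 rose and Igf2 did not pass, and whether their changes differed was not tested. Igf1, which encodes the main mediator of growth hormone action, read 402 and 372 for the control pools, against 564 and 667 for the knockout pools. Both knockout arrays lay above both controls, with the second knockout array the highest. The difference was 0.60 ± 0.12 (95% CI 0.33 to 0.87, adjusted p = 0.0137), a 1.51-fold rise. It ran from 0.45 without knockout replicate 2 to 0.75 without knockout replicate 1, and Igf1 was below the filter when only genes over the 60th percentile were tested. Igf2, an imprinted fetal growth factor gene, read 301 and 355 for the control pools, against 367 and 404 for the knockout pools. The deposited signals of the groups did not overlap, but after normalization they did, since control replicate 2 (8.57) lay just above knockout replicate 1 (8.56). Its difference of 0.19 ± 0.13 (95% CI -0.11 to 0.48, adjusted p = 0.426) did not pass, and that interval does not show that Igf2 stayed level. It was 0.06 without control replicate 1, 0.12 without knockout replicate 2 and 0.31 without control replicate 2. Each gene was read by a single probe set over the whole transcript, so splice forms of Igf1 and the secreted form of Ghr could not be told apart from the full-length forms.

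**Figure D1:**
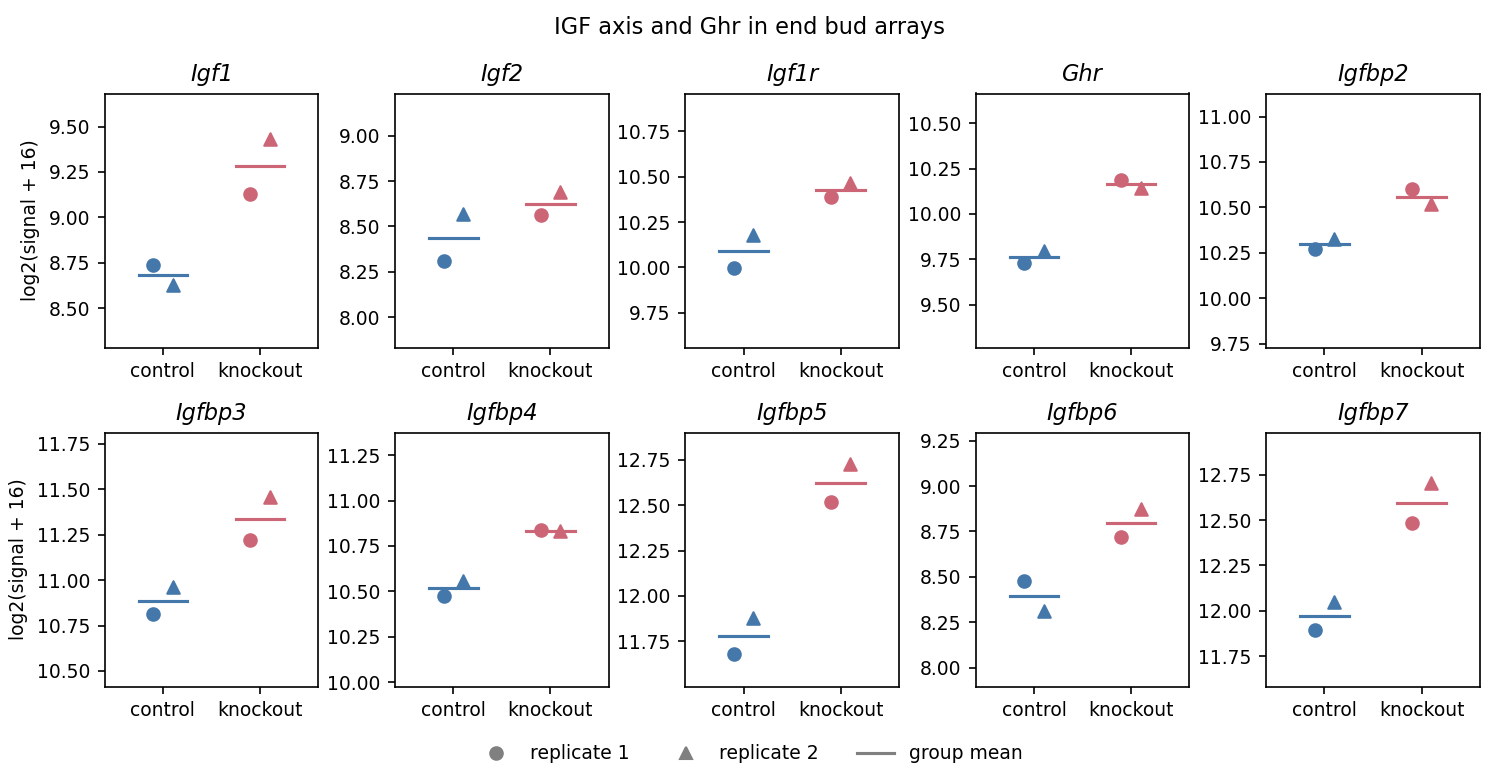
Normalized log2(signal + 16) of the 10 genes on each array (vertical axes, different levels but the same span in every panel), with control in blue, knockout in red, circles for replicate 1, triangles for replicate 2 and lines for group means. Both knockout arrays lie above both controls in every panel except Igf2, where control replicate 2 (8.57) lies just above knockout replicate 1 (8.56).

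Both receptor genes of the route rose. Ghr, the receptor that starts the route, read 811 and 884 on the control arrays, against 1193 and 1097 on the knockout arrays. The arrays of each group lay close together, and the gap between the groups (0.35) exceeded the distance between the control arrays (0.066) and between the knockout arrays (0.046) on the log2 scale. The difference was 0.40 ± 0.07 (adjusted p = 0.00752), or 1.32-fold. Igf1r, the receptor tyrosine kinase for both IGFs, read 981 and 1153 for the control pools, against 1363 and 1381 for the knockout pools. The knockout arrays were nearly equal, and control replicate 1 was the lowest of the 4. The difference was 0.34 ± 0.08 (adjusted p = 0.0236), or 1.26-fold. Neither receptor passed without control replicate 1, where Ghr differed by 0.37 and Igf1r by 0.25, or with each array centred on its median.

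Among the binding proteins, 5 of 6 rose and Igfbp6 did not pass. Igfbp5, a matrix-bound binding protein known to increase in the involuting mammary gland, read 3243 and 3755 for the control pools, against 5883 and 6751 for the knockout pools. No other member had as wide a gap between the groups: its lower knockout array exceeded its higher control array by 0.64 on the log2 scale. The difference was 0.84 ± 0.08 (95% CI 0.66 to 1.02, adjusted p = 0.000475), and 1.27% of tested genes differed by more in either direction. It passed in all 13 other fits, at 0.74 to 0.94, with adjusted p up to 0.0428.

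Igfbp7, a distant relative that binds IGFs weakly and is abundant in vessel walls and stroma, read 3784 and 4242 on the control arrays, against 5758 and 6666 on the knockout arrays. Its difference was 0.62 ± 0.08 (adjusted p = 0.00151), or 1.54-fold, again with knockout replicate 2 the highest array. Igfbp3, the main carrier of IGFs in plasma, read 1751 and 2000.2 for the control pools, against 2411 and 2760.45 for the knockout pools. The groups stood apart by 0.26 on the log2 scale, and the difference was 0.45 ± 0.08 (adjusted p = 0.00903), or 1.37-fold. Without knockout replicate 2 it was 0.34.

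Igfbp4, a binding protein known mainly as an inhibitor of IGF action, read 1370.3 and 1507 for the control pools, against 1856 and 1776 for the knockout pools. Its knockout arrays were nearly equal, and the difference was 0.32 ± 0.06 (adjusted p = 0.0108), or 1.25-fold. Igfbp2, which carries an integrin-binding sequence, read 1184 and 1284 on the control arrays, against 1577 and 1429 on the knockout arrays. Both knockout arrays were higher, yet the difference of 0.26 ± 0.06 (adjusted p = 0.0306) was the smallest that passed among the members. The Igfbp2 call was lost when either control array or knockout replicate 1 was removed, with no filter (adjusted p = 0.0517) and with median centring, at 0.22 to 0.30 over its alternatives. The Igfbp4 call did not survive the removal of control replicate 1 (0.27) or median centring.

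Igfbp6, which prefers IGF2 over IGF1, read 337 and 292 for the control pools, against 414 and 458 for the knockout pools. Both knockout arrays were above both controls, and the difference was 0.40 ± 0.12 (95% CI 0.13 to 0.68), but it did not pass (adjusted p = 0.0694). It passed in the values as deposited and without knockout replicate 1, with adjusted p from 0.0152 to 0.268 over its alternatives. Its difference was as large as that of Ghr, which passed with a smaller SE (0.07 against 0.12). Igf1, Igf2 and Igfbp6 were the dimmest of the 10 relative to all genes, with mean signals at the 57.6th, 50.3rd and 51.2nd percentiles of the array, and they had the largest SEs among the members.

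**Figure D2:**
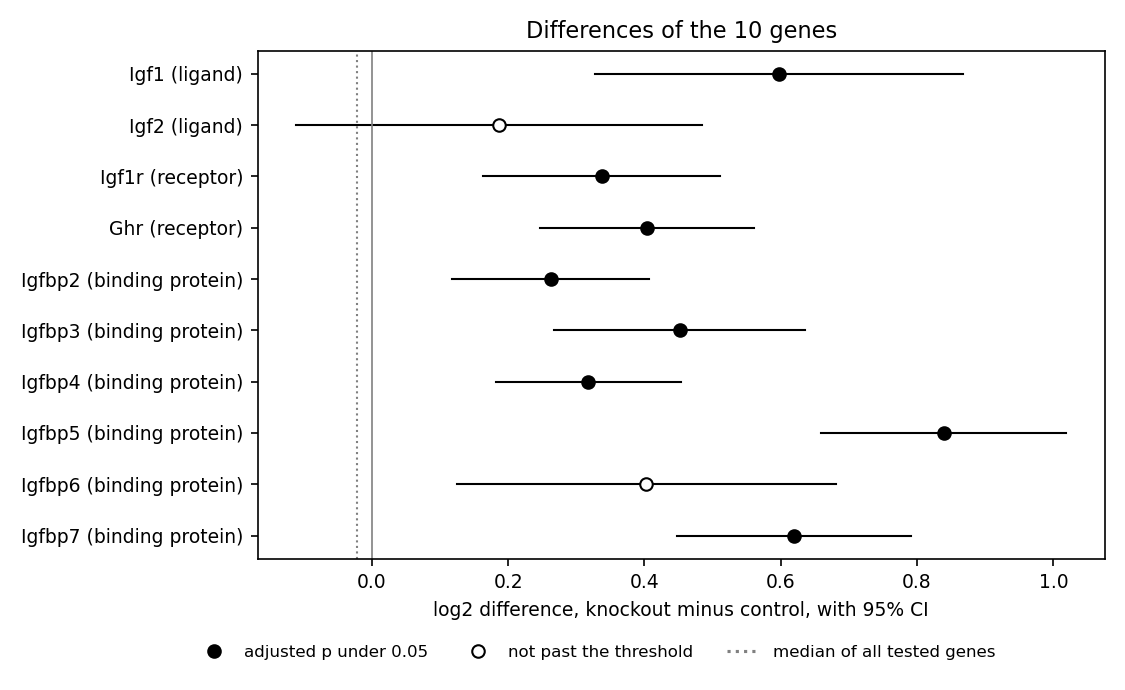
Log2 differences (knockout minus control, horizontal axis) with 95% CI for the 10 genes, filled where the adjusted p was under 0.05; the dotted line is the median of all tested genes (-0.02). All 10 points lie to the right of 0, from 0.19 for Igf2 to 0.84 for Igfbp5, and the open points are Igf2 and Igfbp6.

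Over the 10 genes the median difference was 0.40, while the median over all tested genes was -0.02. The 8 that rose compare with 6.29% of all tested genes called as higher, and the 0 that fell with 4.45% called as lower. For 9 of the 10 the knockout arrays lay above both controls, against 26.4% of all tested genes. The members were chosen with earlier results of these arrays known, so these counts describe the list and test nothing about it. With 2 arrays against 2 the smallest two-sided exact permutation p for any single gene is 0.333, so each call rests on the spread borrowed from other genes. Without the mean-variance trend in that spread, 1 of the 10 passed, Igfbp5, against 1.2% of all genes called higher. Without control replicate 1, 4 passed (Igf1, Igfbp3, Igfbp5 and Igfbp7) against 2.67%, and with median centring the same 4 against 4.01%.

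Which of the 2 knockout arrays read higher differed among the members. Knockout replicate 2 was the higher array for 7 of the 10 (Igf1, Igf2, Igf1r, Igfbp3, Igfbp5, Igfbp6 and Igfbp7) and the lower for Ghr, Igfbp2 and Igfbp4, whereas over all tested genes it was higher for 44%. It was also the higher one for all 18 of the fibroblast markers described next. That order was not particular to fibroblast markers. The endothelial marker Emcn read 10.13 on knockout replicate 1 and 10.55 on knockout replicate 2 on the log2 scale. The basal epithelial marker Krt5 read 11.07 and 11.47, while the basal marker Itgb4 went the other way (10.62 and 10.48). What this order reflects was not tested. Among the controls, replicate 2 was higher for 8 of the 10, the exceptions being Igf1 and Igfbp6, against 60.1% of all tested genes.

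Markers of stromal cells differed between the same arrays. Their counts stand beside 6.29% of all tested genes called higher and 4.45% called lower. Of 18 fibroblast and matrix markers, 15 rose and 0 fell, with a median of 1.13, and their summed signal was 16530 and 17606 for the control pools, against 32761 and 38959 for the knockout pools. Of 15 endothelial markers 5 rose and 0 fell, with a median of 0.47 and sums of 6667 and 7880 on the control arrays, against 9243 and 10908 on the knockout arrays. Adipocyte markers numbered 11 after the filter, of which 6 were called higher and 0 lower. Their sums over the 16 on the array were 11508 and 12497 for the control pools, against 14741 and 15158 for the knockout pools. The other 5, Adipoq, Lep, Retn, Cidec and Plin4, lay under the filter level on all 4 arrays. The lipid droplet gene Plin1 lay over that level on each array and differed by -0.08, which did not pass. IGF ligands and binding proteins are known to be made by such stromal cells as well as by epithelium. The part of these cells in the differences of the 10 genes was not tested. In RNA of whole end buds, more cells of a type and more RNA per cell cannot be told apart.

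Epithelial, blood cell and muscle markers were read in the same way, beside the same shares of all tested genes (6.29% higher, 4.45% lower). Of 18 luminal epithelial markers 2 rose and 0 fell, and their summed signal was 87467 and 90125 for the control pools, against 91624 and 88398 for the knockout pools, so that the groups overlapped. Of 16 basal epithelial markers 8 rose and 3 fell, with sums of 36310 and 39202 on the control arrays, against 42516 and 49473 on the knockout arrays. The 8 were the contractile genes Mylk, Myh11, Cnn1, Tagln and Acta2, with Oxtr, Lgr5 and Egfr. The 3 were Trp63 (-0.36), Snai2 (-0.39) and Itgb4 (-0.26), and Krt5 (-0.02) did not pass. The list thus did not change in a single direction. Of 11 tested macrophage and myeloid markers 0 rose and 2 fell, with sums over the 16 on the array of 6693 and 7466 for the control pools, against 7411 and 5272 for the knockout pools. Of 5 tested lymphocyte markers 0 rose and 2 fell. The sums over the 12 on the array were 3540 and 2892 for the control pools, against 1918 and 2048 for the knockout pools. Of 5 tested skeletal muscle markers 0 rose and 0 fell, with sums over the 10 on the array of 2838 to 3406 across the 4 arrays.

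**Figure D3:**
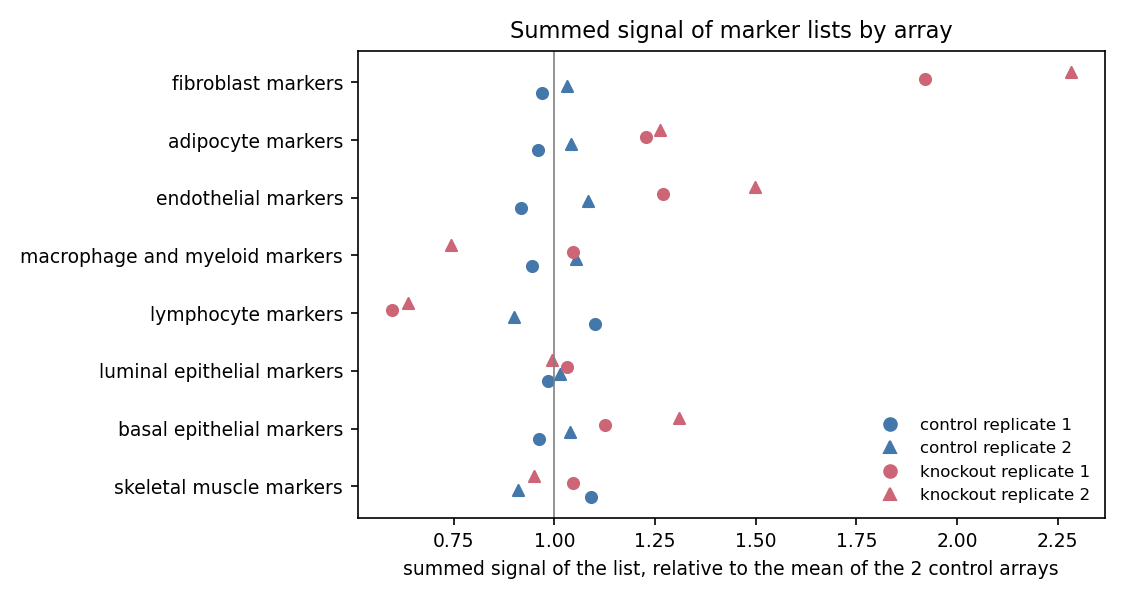
Summed deposited signal of each marker list on each array, divided by the mean of the 2 control arrays (horizontal axis), with control in blue, knockout in red, circles for replicate 1 and triangles for replicate 2. The fibroblast sums stand farthest apart (16530 and 17606 against 32761 and 38959), and the luminal sums of the groups overlap.

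Downstream of the growth hormone receptor, the kinase and 1 of the STAT5 genes rose. Of 10 listed genes 7 were tested, of which 2 rose, 0 fell and 5 did not pass, with a median of 0.20. Over all tested genes 6.29% were called higher and 4.45% lower. Jak2, the kinase bound to the growth hormone and prolactin receptors, read 1774 and 2019 for the control pools, against 2821 and 2542 for the knockout pools, a difference of 0.49 ± 0.07 (adjusted p = 0.00226). Stat5a, which also carries the prolactin signal in mammary epithelium, read 1700.01 and 1976 on the control arrays, against 3101 and 2387 on the knockout arrays, a difference of 0.56 ± 0.10 (adjusted p = 0.00933). Stat5a lay highest in knockout replicate 1 and did not pass with a robust prior. Stat5b, the form most tied to growth hormone in body growth, differed by 0.26 ± 0.08 and did not pass (adjusted p = 0.0704), although both knockout arrays were higher. It was 0.16 without control replicate 1 and passed in 5 of 13 other fits. The feedback inhibitor genes induced by STAT5 did not pass: Socs2 differed by 0.19 ± 0.07 (adjusted p = 0.124) and Cish by 0.19 ± 0.12 (adjusted p = 0.388). Socs2 was 0.12 without knockout replicate 1 and passed in 2 of 13 other fits.

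Among genes that set how much IGF is free to act, 1 of 6 tested rose and 0 fell, with a median of 0.07. Over all tested genes 6.29% were called higher and 4.45% lower. Htra1, a secreted serine protease that can cleave Igfbp5, read 554 and 603 on the control arrays, against 912 and 990 on the knockout arrays. The groups stood 0.54 apart on the log2 scale and the difference was 0.67 ± 0.09 (adjusted p = 0.0021). It passed in all 13 other fits. Pappa, the metalloprotease that cleaves Igfbp4, read 838 and 927 for the control pools, against 933 and 838 for the knockout pools, a difference of -0.01 ± 0.08 (95% CI -0.18 to 0.16). Igf2r, the receptor that clears IGF2, differed by -0.03 ± 0.06 (95% CI -0.17 to 0.11). The sign of the Pappa value turned in the values as deposited, and the signs of both Pappa and Igf2r turned without control replicate 2 and without knockout replicate 2. The liver binding protein gene Igfbp1, named after its values were seen, lay under the filter level on all 4 arrays.

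Most genes of receptor signalling did not pass, as was so for 10678 of all 11963 tested genes. Of 21 tested genes 1 rose, 1 fell and 19 did not pass, with a median of 0.02. The shares over all tested genes were 6.29% called higher and 4.45% lower. Insr, the insulin receptor gene, whose product can pair with the IGF1 receptor, read 1314 and 1416 on the control arrays, against 1648 and 1688 on the knockout arrays, a difference of 0.27 ± 0.06 (adjusted p = 0.0251) that was lost without control replicate 1, without knockout replicate 2 and with median centring. Grb14, an adaptor that inhibits the insulin receptor, read 2096 and 2275 on the control arrays, against 1905 and 1587 on the knockout arrays. It fell by 0.33 ± 0.07 (adjusted p = 0.0208), a call lost without control replicate 2. The docking protein genes Irs1 (0.23 ± 0.09, adjusted p = 0.134) and Irs2 (0.39 ± 0.12, adjusted p = 0.0711) had higher values in both knockout arrays and did not pass. Irs1 was 0.11 without control replicate 1, 0.36 without control replicate 2 and 0.11 with the mean of its probe sets, and it passed in 3 of 13 other fits. Irs2 was 0.19 when knockout replicate 2 was removed and 0.59 when knockout replicate 1 was, and it passed in 4 of 13, among them those without control replicate 2, without knockout replicate 1 and on the values as deposited. Of the PI3 kinase, AKT and mTOR genes tested, none passed. Eif4ebp1, whose product is a target of mTOR, differed by -0.19 ± 0.07 and Pik3cb, a catalytic PI3 kinase subunit gene, by -0.15 ± 0.06 (adjusted p = 0.126 for each), with both knockout arrays below both controls. Foxo1, in the same list, differed by 0.21 ± 0.08 (adjusted p = 0.127), with both knockout arrays above both controls. Of the 21 tested genes 8 had both knockout arrays above both controls and 6 below. Over all 11963 tested genes these counts were 3159 and 3576. Akt1 differed by -0.10 ± 0.05, Pik3ca by 0.04 ± 0.06 and Mtor by 0.03 ± 0.08.

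Of the genes tied to the Igf2 locus or to Igf2 mRNA, 1 could be tested. Plagl1, an imprinted zinc finger gene known to activate Igf2, read 463 and 559 for the control pools, against 665 and 779 for the knockout pools. The difference was 0.44 ± 0.12 (adjusted p = 0.0449), and the call was lost without control replicate 1, without knockout replicate 2 (0.29), with median centring, with no filter and with the filter at the 60th percentile. Plagl1 thus passed narrowly while Igf2 itself did not, and whether their changes differed was not tested. Over the 4 lists together, 35 of 49 genes were tested, 5 rose, 1 fell and 29 did not pass, with a median of 0.10. The shares of all tested genes called were 6.29% higher and 4.45% lower. Without the mean-variance trend 1 of the 35 passed, Htra1, and without knockout replicate 1 there were 11, against 19.6% of all genes in that fit.

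**Figure D4:**
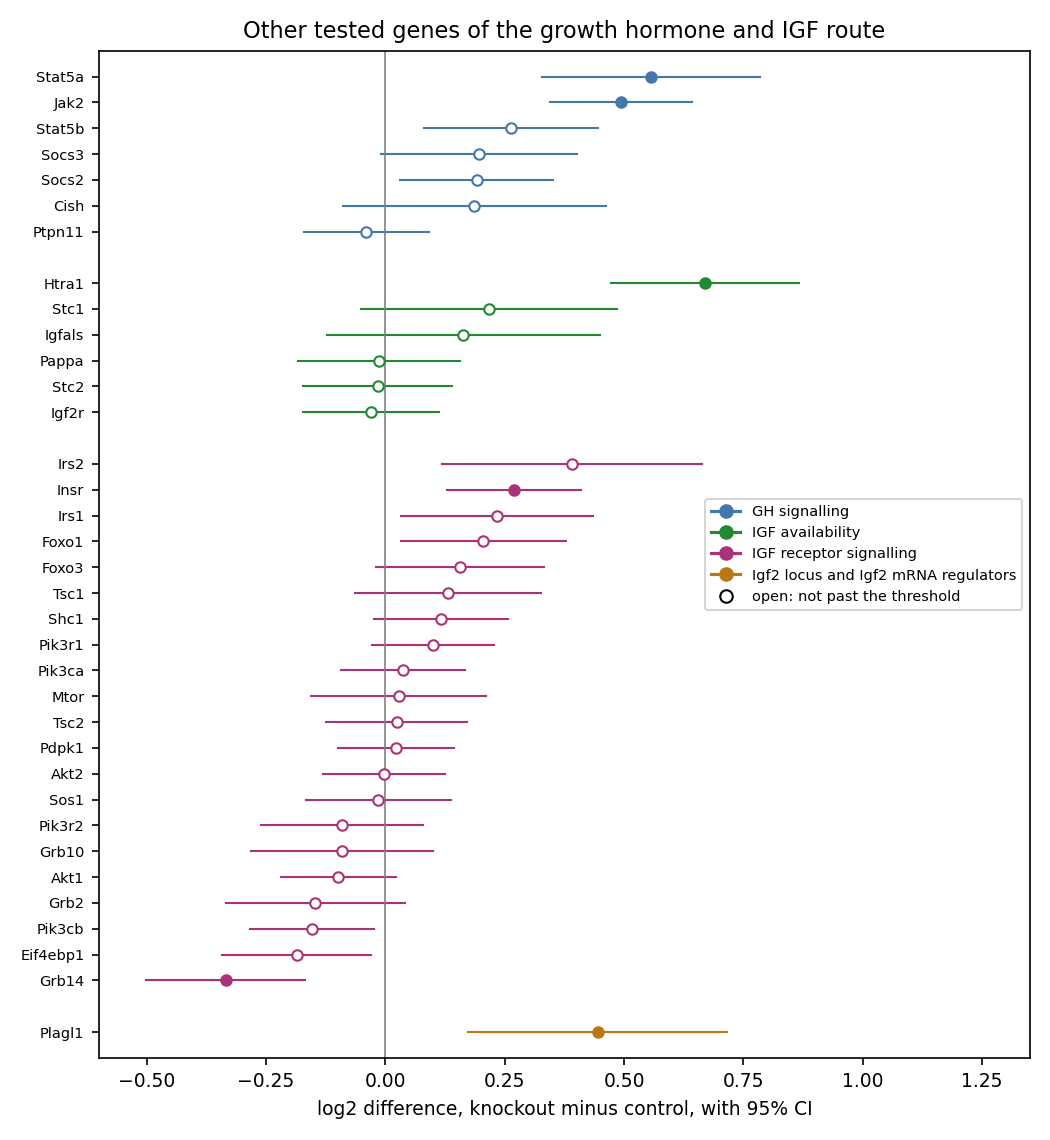
Log2 differences (knockout minus control, horizontal axis) with 95% CI for the 35 tested genes of the 4 pathway lists, coloured by list and filled where the adjusted p was under 0.05. Stat5a, Jak2, Htra1, Insr and Plagl1 are filled to the right of 0 and Grb14 to the left, and the other 29 points are open.

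The members lie on several chromosomes, and some are neighbours. In the RefSeq gene table of the GRCm38 assembly Igfbp2 and Igfbp5 are adjacent protein-coding genes, and both rose, by 0.26 and 0.84. Igfbp3 adjoins Igfbp1, which lay under the filter level. Named after their values were seen, the neighbours of Igfbp4 were lower in the knockout: the topoisomerase gene Top2a, a gene of dividing cells, differed by -0.23 (adjusted p = 0.0445) and the tensin gene Tns4 by -0.44 (adjusted p = 0.00553), while Igfbp4 rose by 0.32.

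The genes whose 4 centred log2 values lay nearest to those of a member, by Euclidean distance over the 4 arrays, were listed for 3 members. For Igf1 they were Tcim (distance 0.074), the chemokine gene Cxcl17 (0.081) and the fatty acid transporter gene Cd36 (0.088), with differences of 0.60, 0.62 and 0.64. Cd36 is one of the adipocyte markers above. For Igf1r they were Zc3h12c (0.012), Mxd4 (0.024) and the matrix protein gene Fras1 (0.025). Their differences were 0.34, 0.34 and 0.36, and that of Fras1 did not pass (limma, adjusted p = 0.136). For Ghr they were the adenylate kinase gene Ak1 (0.014), Itm2a (0.026) and the immune checkpoint gene Vtcn1 (0.031). Their differences were 0.41, 0.40 and 0.40, and that of Ak1 did not pass (limma, adjusted p = 0.0754). With 4 arrays such nearness is a description and many genes lie close.

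**Figure D5:**
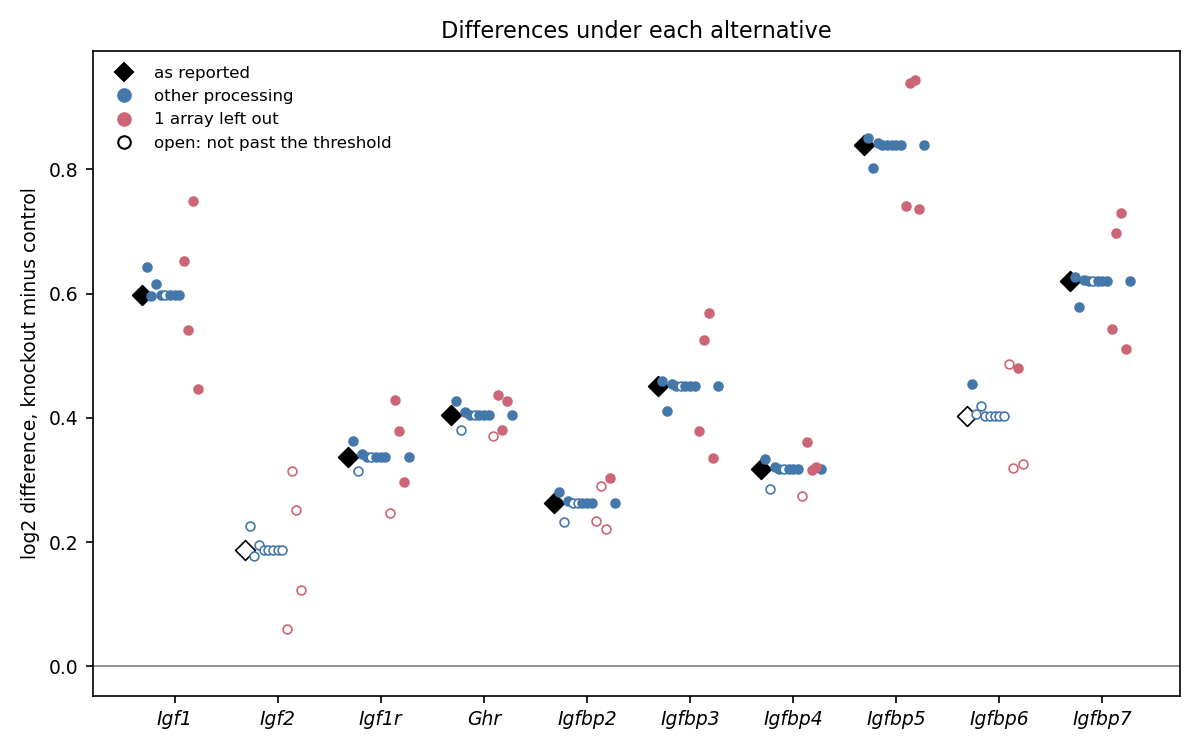
Log2 differences (vertical axis) of the 10 genes as reported (diamonds), under other processing (blue) and with 1 array left out (red), open where the threshold was not passed. All values lie above 0, from 0.06 for Igf2 without control replicate 1 to 0.94 for Igfbp5.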

How the data were processed

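The submitters deposited 1 linear signal intensity per probe set and array for 35556 probe sets on 4 arrays, made with Affymetrix Expression Console 1.1.1 and PLIER 2.0, per the submitters' processing notes. Settings, background correction and build: not given in the sources used here. Of the probe sets, 21789 carried 1 gene symbol in the platform annotation, 1621 several and 12146 were not listed. The brightest probe set by mean stood for a gene (19938 genes). Signals were taken as log2(signal + 16) and quantile normalized with limma 3.58.1 in R 4.3.3, since the array medians differed by 0.1006. Genes under the 40th percentile of the mean (a log2 value of 7.97, a signal of 235) were left out. Groups were compared with lmFit and eBayes with a trend (2 residual and 7.58 prior degrees of freedom), two-sided, and the code was tested on simulated data. No detection calls were used, so dim signals could not be told from background, and the number of arrays limits the precision.

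The members and lists were chosen with earlier results of these data known. The named genes were the 10 members, Ovol2, Krt14, up to 4 called genes with the largest difference in each pathway list and a fixed set of route genes; 6 of 49 listed pathway genes were not analysed here. Alternatives covered scaling, offset, filter, variance prior, probe choice, a replicate block and each array left out. Same-numbered arrays share only a number: no label pairs them.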

Additional observations from a re-analysis of the deposited data

How the results depend on the processing

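All 10 members kept their direction in all other fits, and Igfbp5 kept its call in all 13. The number called was 8 as reported, 4 with median centring, 1 with no mean-variance trend and 4 to 8 with 1 array left out; the other settings gave 7 to 9. Over all genes, 1285 became 753 with median centring, 188 with no trend, 2246 with the replicate number as a block and 476 to 2347 with 1 array left out. The 6 pathway genes called became 1 with no trend, 14 with the replicate block and 4 to 11 with 1 array left out. The block changed no call among the 10. Same-numbered arrays deviated from their group means with r = -0.20 over tested genes; crossed numbers as a block, chosen after seeing the data, gave 1203 genes, 9 members and 5 pathway genes. Pappa turned to 0.0042 in the values as deposited and ran from -0.056 to 0.030 with 1 array left out, and Igf2r from -0.098 to 0.038. Several fits (values as deposited, median centring, the block, either knockout array left out) fixed the variance at the trend, and the cause of the changes was not tested. The fits with 1 array in a group assume that it varies like the other group. No detection calls bound the dimmest members, Igf2, Igfbp6 and Igf1.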
